A study of Rattus norvegicus with 20 samples.

Results

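The comparison described here asks whether cyclophosphamide changed miRNAs by a different amount in haploid germ cells than in meiotic germ cells of the rat. For each miRNA the drug effect, cyclophosphamide minus saline, was taken in round spermatids and in pachytene spermatocytes, and the pachytene effect was subtracted from the spermatid effect. All 20 arrays of the series entered, 5 in each of 4 groups, and every group is named in the array titles. Of the 677 rat miRNAs on the array, 217 were detected by the scanner software on all arrays of at least 1 group and were tested, and 460 were not. All groups came from Sprague-Dawley males that were dosed by gavage on 6 days per week for 4 weeks. The drug groups (CPA) received cyclophosphamide at 6 mg/kg and the control groups (SAL) received saline, so the controls share the gavage and the strain. Germ cells were separated by size with STA-PUT sedimentation at unit gravity, and 100 ng of total RNA was labelled with Cy3. Sedimentation enriches a cell type and does not sort on a marker. In such bulk preparations fewer cells of a type and less RNA per cell cannot be told apart.

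The rats carry numbers in the labels, and the CPA pachytene group holds 2 arrays numbered 16 with different years, called here the earlier and the later rat 16. The labels do not state that these are different animals, and the p-values measure the spread between samples as labelled. With either of them left out, limma still called 0 miRNAs. The number recurs in both cell types for CPA rat 15 and for SAL rats 16, 25 and 28, and a CPA rat 16 stands in both. The labels do not say whether these are the same animals. The labels also place each array on 1 of 3 slides. Slide 1 held 4 pachytene arrays, 1 SAL spermatid array and 3 CPA spermatid arrays. Slide 2 held 6 pachytene arrays and 1 spermatid array of each treatment. Slide 3, scanned on another day than slides 1 and 2, held no pachytene array, 3 SAL spermatid arrays and 1 CPA spermatid array. Slide and treatment are therefore unbalanced in round spermatids, and every value within slide 1 or slide 2 rests on a single SAL spermatid array.

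MicroRNAs are short RNAs that guide the Argonaute proteins to messenger RNAs and repress them, mainly through the seed near the 5′ end. Spermatogenesis runs through mitotic spermatogonia, meiotic spermatocytes and haploid spermatids. Transcription of the sex chromosomes is silenced in pachytene spermatocytes, and much of the messenger RNA that spermatids need is stored for later use. Cyclophosphamide is an alkylating anticancer drug whose active metabolites bind DNA, and the p53 pathway, which induces the miR-34 family, is a main responder to DNA damage.

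Mature sequences were taken from RefSeq, build GRCr8, which holds 196 of the 217 tested miRNAs. The letters in capitals mark the seed, bases 2 to 8 from the 5′ end. The first set is the miR-34 and miR-449 family, which is shown because miR-34b-5p, miR-34c-5p and miR-449a-5p are the brightest miRNAs on the arrays and share 1 seed with miR-34a-5p.
miR-34a-5p: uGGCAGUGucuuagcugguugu
miR-34b-5p: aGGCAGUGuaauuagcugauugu
miR-34c-5p: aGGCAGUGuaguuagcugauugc
miR-449a-5p: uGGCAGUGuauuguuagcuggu
The genes of miR-34b-5p and miR-34c-5p lie next to each other on the minus strand, at chr8:60306657-60306679 and chr8:60306133-60306155. The second set shares another seed, comes from the related miR-17-92 and miR-106b-25 clusters and the miR-20b locus, and is shown because all members lay on the same side of 0.
miR-17-5p: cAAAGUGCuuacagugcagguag
miR-20a-5p: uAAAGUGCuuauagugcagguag
miR-20b-5p: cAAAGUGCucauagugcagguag
miR-93-5p: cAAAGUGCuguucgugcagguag
miR-106b-5p: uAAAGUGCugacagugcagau
The last set holds miRNAs on which the comparison turns: miR-351-3p had the smallest p, miR-487b-3p the largest difference, and miR-211-3p and miR-3541 the widest replicate spread.
miR-351-3p: gGUCAAGAggcgccugggaac
miR-487b-3p: aAUCGUACagggucauccacuu
miR-211-3p: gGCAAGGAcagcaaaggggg
miR-3541: uCCCUCCCccucacugca
miR-351-3p lies on the minus strand of the X chromosome at chrX:137725121-137725141, and miR-487b-3p on the plus strand at chr6:134562939-134562960.

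The drug effect did not differ between the cell types for any miRNA past the threshold. limma called 0 of 217 miRNAs (0% of those tested) at a Benjamini-Hochberg adjusted p under 0.05, and the smallest adjusted p was 1. At an unadjusted p under 0.05 there was 1 miRNA, miR-351-3p, where 10.85 would be expected if the p-values were spread evenly. The differences, on the log2 scale, ran from -0.45 for miR-32-3p to 0.67 for miR-487b-3p, with a median of 0.01. They lay above 0 for 119 miRNAs, below 0 for 96 and at exactly 0 for 2, miR-210-3p and miR-532-5p. Both of these were at the floor of 3.61 (log2) throughout, so no drug effect could be read in them. For 197 of the 217 the difference was within 0.25 of 0 on the log2 scale. In neither cell type did the 5 CPA arrays of any tested miRNA lie wholly above or below the 5 SAL arrays (0 of 217, 0%).

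The precision of these values sets what they can show. The median standard error of the difference was 0.20 on the log2 scale, and the median half-width of the 95% interval was 0.42. The interval lay inside a 2-fold difference in either direction for 198 miRNAs (91.2%) and inside a 1.5-fold difference for 130. For the other 19 it reached beyond 2-fold on at least 1 side, and none reached beyond 4-fold. Replicate spread was larger in round spermatids for 14 of those 19, among them miR-211-3p, miR-3541, miR-487b-3p and miR-188-5p. The floor removes spread and can narrow an interval. At the floor were 20 miRNAs on all pachytene arrays and 11 on all spermatid arrays.

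**Figure D1:**
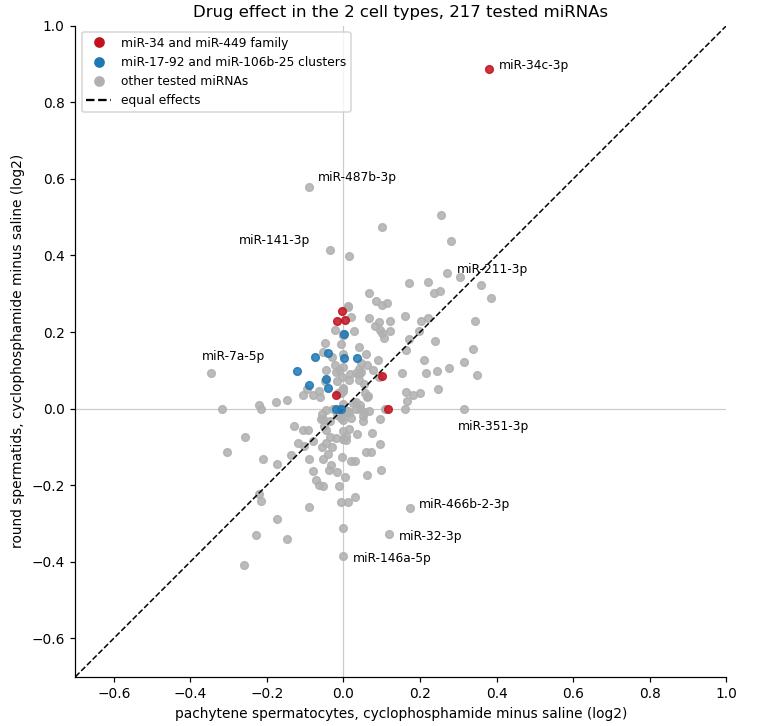
Drug effect in pachytene spermatocytes (horizontal axis, CPA minus SAL, log2) against the drug effect in round spermatids (vertical axis) for the 217 tested miRNAs, with the dashed line marking equal effects, the miR-34 family with miR-449 in red and the miR-17-92 and miR-106b-25 clusters in blue. Vertical distance from the line is the difference of the effects, from -0.45 for miR-32-3p to 0.67 for miR-487b-3p, and most points lie near the line.

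The miR-34 and miR-449 family, the most abundant family of late male germ cells and partly redundant in spermatogenesis, had 7 tested members of 10 on the array. None was called in either direction. Its median difference was 0.23, against 0.01 over all tested miRNAs, with 5 members above 0 and 2 below. Over all tested miRNAs the difference rose with mean signal (Pearson's r = 0.31, Spearman's rho = 0.28), and this family holds the brightest of them. Whether the family stands apart from that rise was not tested. The 4 members with the shared seed were all above 0, from 0.05 for miR-34a-5p to 0.26 for miR-34c-5p.

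miR-34b-5p was the brightest miRNA of the arrays. In SAL pachytene spermatocytes it had a scaled log2 signal of 13.08, 13.22, 12.68, 12.66 and 12.73 in rats 13, 16, 25, 26 and 28. In CPA pachytene spermatocytes it read 12.96, 13.20, 12.64, 12.94 and 12.64 in rats 7, 15, the earlier 16, the later 16 and 29, and the treatments overlap. In SAL round spermatids it read 13.85, 12.85, 13.94, 13.15 and 13.70 in rats 15, 16, 17, 25 and 28. CPA round spermatids read 13.67, 14.07, 13.59, 13.45 and 13.87 in rats 14, 15, 16, 25 and 26, inside the SAL range but for rat 15. Rats 16 and 25 of the SAL spermatid group were the low ones. The group means were 12.87 ± 0.26 (SD, n = 5), 12.88 ± 0.24, 13.50 ± 0.48 and 13.73 ± 0.25, so the difference was 0.23 ± 0.28 (SE), with a 95% interval from -0.35 to 0.81. Without SAL spermatid rat 16 the family's median fell to 0.06, and within slide 1 it was -0.01. Under quantile normalization the family's median was 0. That method gives the brightest probe of every array the same value, so for miR-34b-5p it cannot show a difference.

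miR-34c-5p and miR-449a-5p, which share that seed, were lowest in the same SAL spermatid rat. miR-34c-5p had a SAL spermatid low of 12.13 in rat 16 and a difference of 0.26 (95% interval -0.35 to 0.87). miR-449a-5p had its low of 11.56 in the same rat and a difference of 0.25 (-0.34 to 0.83). The passenger strand miR-34c-3p spread far more than its partner. Its SAL spermatid arrays read 5.37, 6.98, 5.60, 6.67 and 6.95, and its CPA spermatid arrays 7.19, 7.52, 7.04, 6.92 and 7.32. Only CPA rat 25 fell inside the SAL spermatid range. In pachytene spermatocytes it ran from 6.29 to 7.67 with SAL and from 6.54 to 7.88 with CPA, which overlap. The difference of 0.50 for miR-34c-3p therefore had an interval from -0.50 to 1.51, and the 4 probes of this miRNA gave values from -0.10 to 0.50.

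The X-linked cluster that encodes testis miRNAs such as miR-741, miR-743 and miR-880 had 24 tested members of 31. Its differences were centred on 0, with a median of 0.00, 12 members above and 12 below, a range from -0.18 for miR-201-5p (0.08 with slide as a block) to 0.26 for miR-880-3p, and none called. All 24 intervals lay inside a 2-fold difference and 18 inside a 1.5-fold difference. miR-880-3p had the largest of these differences. Its pachytene arrays ran only from 7.89 to 8.09, and its CPA spermatid arrays from 7.83 to 8.32. The SAL spermatid arrays read 8.13, 7.14, 8.12, 7.61 and 7.96, again with rats 16 and 25 lowest. Without SAL rat 16 the difference of miR-880-3p was 0.09. The 13 other X-linked miRNAs, from several separate loci, had a median difference of -0.15, with 3 above 0, 9 below 0 and none called. miR-532-5p was at 0 through the floor. Without SAL spermatid rat 25 that median was -0.03. Over all 40 tested miRNAs that RefSeq places only on the X chromosome the median was -0.01, against 0.02 for 152 on autosomes.

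**Figure D2:**
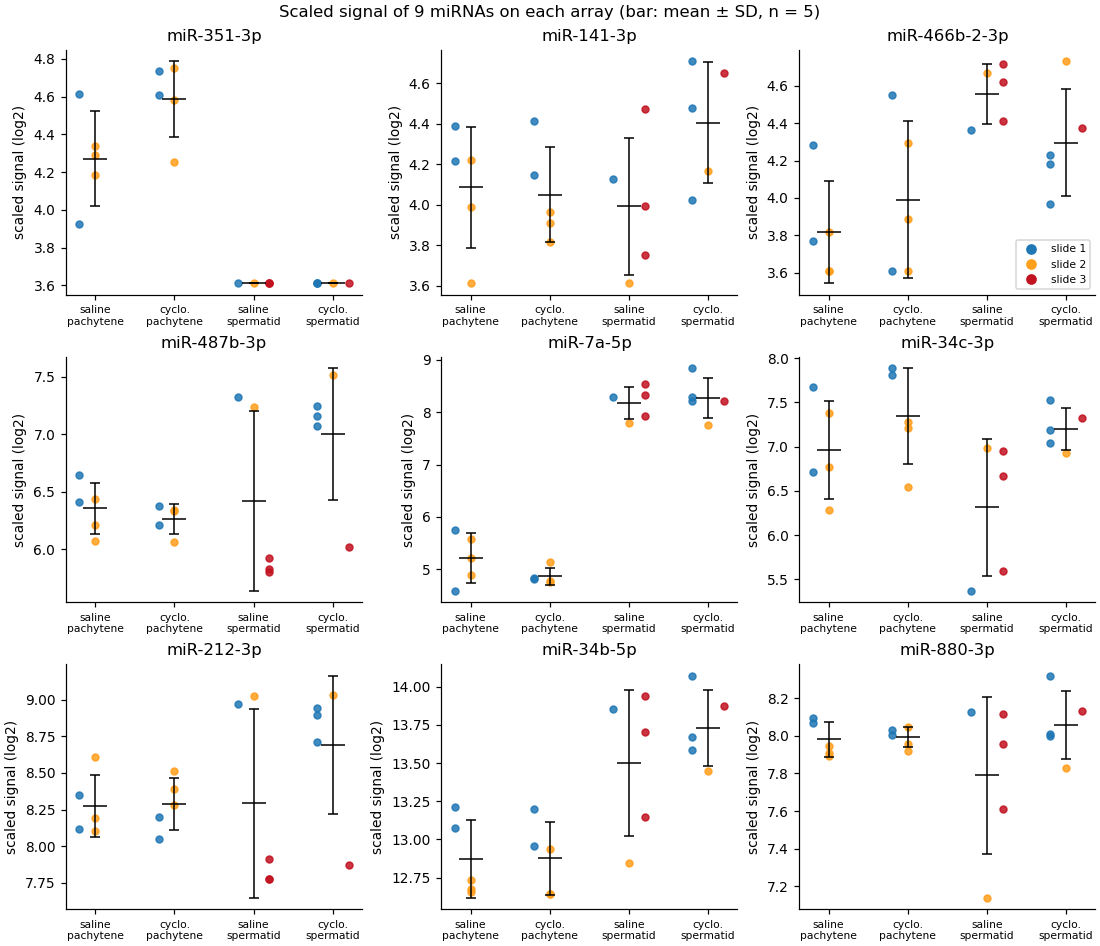
Scaled log2 signal (vertical axis) of 9 miRNAs on each of the 20 arrays, by group (cyclo., cyclophosphamide), with points coloured by slide (1 blue, 2 orange, 3 red) and bars for the mean ± SD of 5 arrays. miR-487b-3p and miR-212-3p split by slide within round spermatids, while miR-351-3p sits at the floor of 3.61 on all spermatid arrays.

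Among miRNAs linked to proliferation, the miR-17-92 and miR-106b-25 clusters, targets of MYC and E2F with a role in spermatogonia, had all 11 tested members above 0. The median was 0.13, the largest value 0.22 for miR-25-3p, and none was called. Of these members miR-106b-3p (0.005) and miR-20a-3p (0.02) were at the floor on all spermatid arrays. Their differences are the pachytene effect alone, with its sign turned. The count of 11 is a description of these arrays: the members come from a few shared transcripts and are measured on the same arrays. The rise of the difference with mean signal, given above, takes them in as well. miR-25-3p ran from 7.75 to 8.30 in SAL pachytene and from 7.69 to 8.06 in CPA pachytene spermatocytes. It ran from 7.88 to 8.53 in SAL and from 8.16 to 8.49 in CPA round spermatids, and the treatments overlapped in both cell types. The difference was 0.22 ± 0.18 (SE). The list's median was -0.20 within slide 1, 0.37 within slide 2, and 0.07 without SAL spermatid rat 16. The bright cluster member miR-19b-3p differed by 0.10 (95% interval -0.32 to 0.51).

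The let-7 family, which marks differentiation and is restrained by LIN28 in immature germ cells, had 9 tested members, a median of -0.04 (0.01 with slide as a block), and 3 above 0. All 9 intervals lay inside a 2-fold difference. Its member with the smallest p, miR-98-5p, differed by -0.23 (-0.81 to 0.34), or by -0.04 with slide as a block. The family of miR-16-5p and miR-195-5p, which targets cyclins, had 6 tested members and a median of 0.10. miR-16-5p, its brightest member, differed by 0.11 (-0.28 to 0.50), and miR-322-5p by -0.24 (-0.71 to 0.24). In SAL round spermatids miR-322-5p read 5.59 in rat 25 and between 4.71 and 4.86 in the other rats. Without rat 25 the difference of miR-322-5p was -0.07. The miR-30 family had 9 tested members with a median of 0.00 and all intervals inside 1.5-fold. Within it miR-30e-5p was measured tightly. Its arrays ran from 7.66 to 8.0 in pachytene spermatocytes and from 7.54 to 7.93 in round spermatids, and its difference was 0.15 ± 0.09 (SE), adjusted p = 1 by limma.

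The list of miRNAs tied to p53 and the DNA damage response, which includes the miR-34 family as its direct targets, had 22 tested members of 44. There were 14 above 0 and 8 below, none called, and the median was 0.05. The miR-29 family, which targets the de novo DNA methyltransferases, had 3 tested members with differences of 0.06, 0.23 and -0.08 for miR-29a-3p, miR-29b-3p and miR-29c-3p. In miR-29b-3p the SAL spermatid arrays ran from 8.48 in rat 16 to 9.60, a range that held 4 of the 5 CPA spermatid arrays. The remaining CPA array read 9.65. Without SAL rat 16 the difference of miR-29b-3p was 0.04, and with slide as a block that of miR-29c-3p was 0.03. miR-148b-3p and miR-152-3p, which act on the maintenance methyltransferase, differed by 0.05 and -0.08, or by 0.09 and -0.24 with slide as a block.

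The largest difference of all was that of miR-487b-3p, a member of the imprinted Dlk1-Dio3 cluster that is expressed from the maternal chromosome. Its pachytene arrays were close together, at 6.41, 6.64, 6.44, 6.07 and 6.21 with SAL and 6.38, 6.21, 6.06, 6.34 and 6.34 with CPA. In SAL round spermatids it read 7.32, 7.23, 5.92, 5.83 and 5.80, and in CPA round spermatids 7.16, 7.24, 7.07, 7.51 and 6.02. The low spermatid arrays were SAL rats 17, 25 and 28 and CPA rat 26. These 4 arrays are the ones on slide 3, and the other 6 spermatid arrays lay between 7.07 and 7.51 whatever the treatment. The difference was 0.67 ± 0.43 (SE, 95% interval -0.24 to 1.57), and with slide as a block it was 0.12 ± 0.15. Slide 1 alone gave 0.07, slide 2 alone gave 0.28, and the arrays outside slide 3 gave 0.06.

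miR-212-3p and miR-1249 showed the same split. miR-212-3p, which is transcribed with miR-132 and carries its seed, read 8.97, 9.03, 7.91, 7.77 and 7.78 in SAL and 8.90, 8.94, 8.71, 9.04 and 7.87 in CPA round spermatids. The 4 lowest values are again the slide 3 arrays. Its difference of 0.38 became -0.04 with slide as a block. miR-1249 went from 0.37 to -0.07. The 7 tested members of the Dlk1-Dio3 cluster, of 78 on the array, had a median of 0.04, or -0.03 with the block. All 7 had a larger replicate SD in round spermatids, as did 159 of all 217 tested miRNAs. For miR-409a-3p and miR-667-3p the pachytene SD was 0, at the floor.

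**Figure D3:**
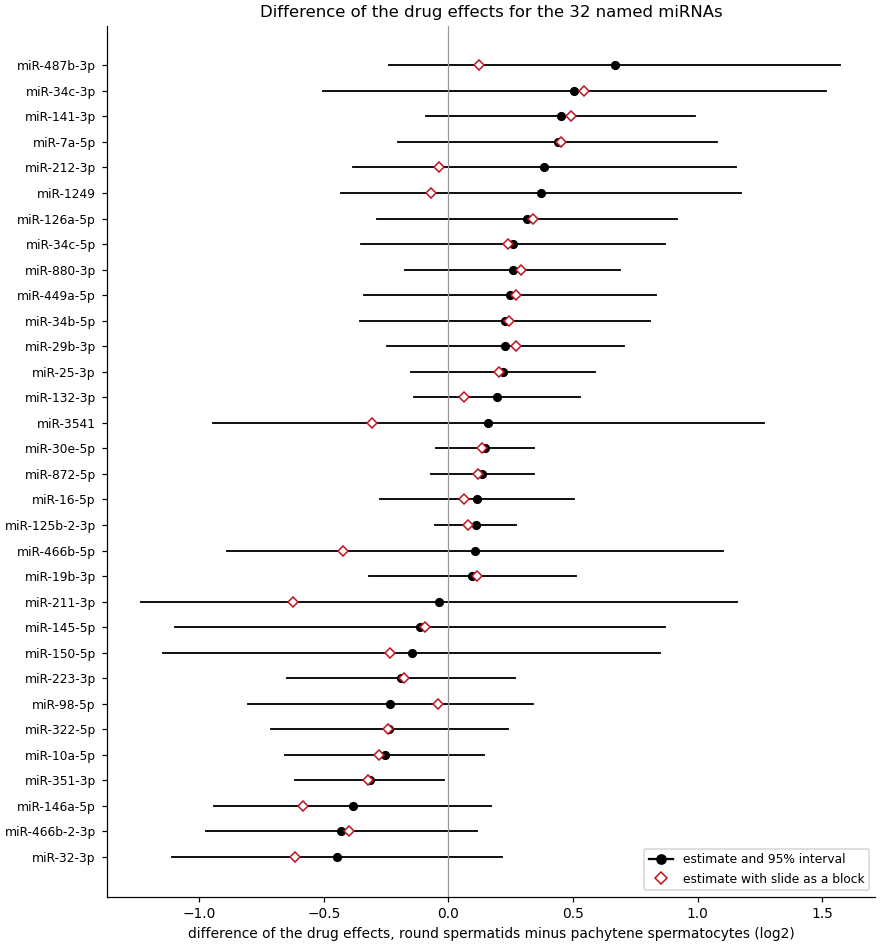
Difference of the drug effects (horizontal axis, log2) for the 32 named miRNAs, with the 95% interval as a line and the estimate with slide as a block as an open diamond. Only the interval of miR-351-3p leaves out 0, and the block moves miR-487b-3p from 0.67 to 0.12 and miR-211-3p from -0.04 to -0.62.

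For several of the remaining miRNAs with small p-values the floor of 3.61 (log2), the level below which no order is read, decided the value. miR-351-3p, from an X-linked cluster with miR-322 and miR-503, was detected on all 10 pachytene arrays and on none of the 10 spermatid arrays. In pachytene spermatocytes it read 3.93, 4.61, 4.29, 4.19 and 4.34 with SAL and 4.74, 4.61, 4.25, 4.58 and 4.75 with CPA. Its difference of -0.32 (-0.62 to -0.02, unadjusted p = 0.0399, adjusted p = 1 by limma) is thus the pachytene effect alone, set against spermatid values that have only a bound. With a lower floor it was 0.0017, and with scaling to the labelling spike-ins, which moved the median over all miRNAs to 0.47, it was 0.02.

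miR-146a-5p, known from immune cells and undifferentiated spermatogonia, stood the other way, at the floor on all 10 pachytene arrays. It read 5.71, 6.13, 4.90, 6.00 and 5.34 in SAL and 5.61, 5.34, 4.97, 5.46 and 4.77 in CPA round spermatids, which overlap. The difference was -0.38 (-0.94 to 0.17), or -0.58 with slide as a block. miR-132-3p and miR-125b-2-3p were likewise at the floor on all pachytene arrays, with differences of 0.19 and 0.11, or 0.06 and 0.08 with slide as a block. miR-125b-2-3p was at the floor on 17 arrays in all. Only CPA spermatid rats 14 and 15 (3.91 and 3.88) and SAL spermatid rat 15 (3.63) lay above it. miR-126a-5p, an endothelial miRNA, was above the floor on 3 pachytene arrays only. Its difference was 0.32. Without SAL pachytene rat 25, which read 5.09, it was 0.04, and with a lower floor it was -0.21.

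miR-141-3p belongs to the epithelial miR-200 family and was detected on 19 of 20 arrays. It ran from 3.61 to 4.42 over the pachytene arrays, from 3.61 to 4.47 in SAL round spermatids and from 4.03 to 4.71 in CPA round spermatids. The difference was 0.45 (-0.09 to 0.99), and 1 of its 2 probes gave 0.45 while the other gave 0. miR-466b-2-3p differed by -0.43 (-0.98 to 0.11) and miR-32-3p by -0.45 (-1.11 to 0.22), or by -0.40 and -0.61 with slide as a block. Each of them was at the floor on 4 arrays. For miR-32-3p the CPA spermatid median lay at the floor, with 2 of 5 arrays detected. Its spermatid effect, and with it the lowest difference of all, is thus partly set by the floor. miR-872-5p, which was measured tightly between 5.05 and 5.42, differed by 0.14 (-0.07 to 0.34).

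miR-7a-5p, a miRNA of neural and endocrine cells, had a drug effect of -0.35 in pachytene spermatocytes and 0.09 in round spermatids. Its pachytene arrays read 5.76, 4.59, 5.58, 5.21 and 4.90 with SAL and 4.82, 4.82, 5.15, 4.75 and 4.77 with CPA. The CPA values were bunched inside the wider SAL range. In round spermatids it ran from 7.79 to 8.54 with SAL and from 7.76 to 8.84 with CPA. The difference was 0.44 (-0.20 to 1.08), and its 2 probes gave -0.02 and 0.44.

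**Figure D4:**
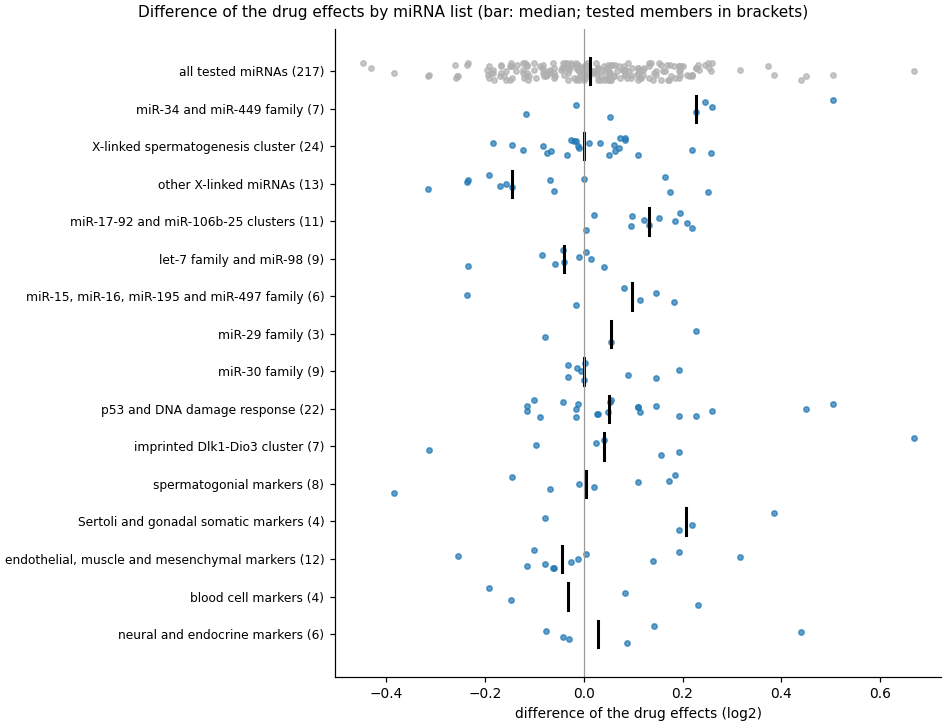
Difference of the drug effects (horizontal axis, log2) for the members of each miRNA list with at least 3 tested members, with a bar at the list's median and all 217 tested miRNAs in grey on top. The list medians lie between -0.15 for the other X-linked miRNAs and 0.23 for the family of miR-34 and miR-449, and no member of any list was called.

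Marker miRNAs of germ cells and of other cell types were read in the preparations. The 3 germ cell markers, miR-34b-5p, miR-34c-5p and miR-449a-5p, were detected on all 20 arrays. They mark germ cells of meiosis and later, so they cannot tell pachytene spermatocytes from round spermatids. Of 18 miRNAs of endothelium, muscle and mesenchyme 11 were tested, and 5 were detected on no array. Their summed log2 signal was between 9.84 and 10.74 in SAL pachytene, 9.57 and 10.24 in CPA pachytene, 11.43 and 11.98 in SAL spermatid, and 11.13 and 12.04 in CPA spermatid arrays. The spermatid preparations thus held more of this summed signal in both treatments, though not of every member. The endothelial miR-126a-5p averaged 4.00 and 3.68 in SAL and CPA pachytene spermatocytes and lay at the floor of 3.61 on all spermatid arrays. The drug effects on the sum were -0.23 in pachytene spermatocytes and -0.13 in round spermatids, and differed by 0.10. Of 10 blood markers 4 were tested, and miR-144-3p, miR-144-5p, miR-451-3p and miR-223-5p were detected on no array. The blood markers summed to between 7.37 and 7.71 on pachytene and between 7.85 and 8.21 on spermatid arrays. The Sertoli and gonadal markers (3 of 6 tested) summed to between 8.62 and 9.02 on pachytene and between 8.18 and 9.26 on spermatid arrays. Their sum differed by 0.33 between the effects and includes miR-212-3p, which splits by slide. The spermatogonial markers (4 of 8 tested) summed to between 9.35 and 9.77 on all 20 arrays, though not every member was even. Among them miR-146a-5p was at the floor on all pachytene arrays and averaged 5.61 and 5.23 in SAL and CPA round spermatids. The part of these markers in the differences above was not tested.

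Within these lists, by the same measure, miR-10a-5p differed by -0.26 (-0.66 to 0.14), the myeloid miR-223-3p by -0.19 (-0.65 to 0.27) and the lymphoid miR-150-5p by -0.15 (-1.15 to 0.85). The smooth muscle miRNA miR-145-5p differed by -0.11 (-1.10 to 0.87). miR-145-5p ran from 7.04 to 8.71 in SAL and from 6.82 to 8.27 in CPA round spermatids. miR-150-5p ran from 3.61 to 5.62 in SAL pachytene spermatocytes, so these markers were among the least even between arrays.

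The spread between the arrays of a group was itself larger in round spermatids than in pachytene spermatocytes. It takes in differences between slides as well as between rats, and slide 3 held spermatid arrays only. The median replicate SD over the 217 miRNAs was 0.16 in SAL pachytene, 0.17 in CPA pachytene, 0.26 in SAL spermatid and 0.23 in CPA spermatid arrays. An SD above 0.5 was found for 7 and 6 miRNAs in the pachytene groups and for 26 and 21 in the spermatid groups. By miRNA the SD was larger in round spermatids for 159 of 217, with a median ratio of 1.43. An SD at the floor is 0, which held for 20 miRNAs on all pachytene arrays and 11 on all spermatid arrays. The count of 159 takes these in, and the ratio leaves out miRNAs with a pachytene SD of 0. Over the 158 miRNAs detected on all 20 arrays the median SD was 0.18 in pachytene spermatocytes and 0.25 in round spermatids. It was larger in round spermatids for 8 of 9 members of the let-7 list and 8 of 9 of the miR-30 family, but for 10 of 24 in the X-linked testis cluster.

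The distance of an array from its group mean, the root mean square deviation over the 217 miRNAs, gives 1 value per array. SAL pachytene arrays lay at 0.18, 0.24, 0.23, 0.18 and 0.15 and CPA pachytene arrays at 0.21, 0.23, 0.16, 0.19 and 0.19, in the order of rats given above. SAL spermatid arrays lay at 0.29, 0.39, 0.25, 0.28 and 0.25 and CPA spermatid arrays at 0.28, 0.25, 0.22, 0.22 and 0.40. The ranges of the cell types overlap, and the highest values belong to SAL rat 16 on slide 2 and CPA rat 26, the only CPA array on slide 3. The mean distance was 0.283 ± 0.063 (SD, n = 10) in round spermatids and 0.196 ± 0.030 in pachytene spermatocytes. The difference of 0.09 had p = 9.4e-05 in an exact two-sided permutation test of the cell type labels within each treatment (63504 arrangements). It was 0.07 (exact permutation p = 0.00013) with slide as a block. Without any scaling it was 0.07 (exact permutation p = 0.29), and with scaling to the labelling spike-ins 0.06 (exact permutation p = 0.29), so it concerns values scaled on the miRNA signal.

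The treatments were compared in the same way. CPA arrays lay at 0.235 ± 0.068 (SD, n = 10) and SAL arrays at 0.244 ± 0.067, a difference of -0.01 with an exact two-sided permutation p = 0.66. miRNA by miRNA, a Brown-Forsythe test with limma, which compares absolute deviations from the group median, called 0 of 217 miRNAs (0%) for a spread that differed between the cell types. At an unadjusted p under 0.05 there were 35, of which 27 spread more in round spermatids. Among the 35, miR-146a-5p and miR-132-3p were at the floor on all pachytene arrays and miR-351-3p on all spermatid arrays. With deviations from the group mean in place of the median it called 65, of which 52 spread more in round spermatids, so the count per miRNA depends on that choice.

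**Figure D5:**
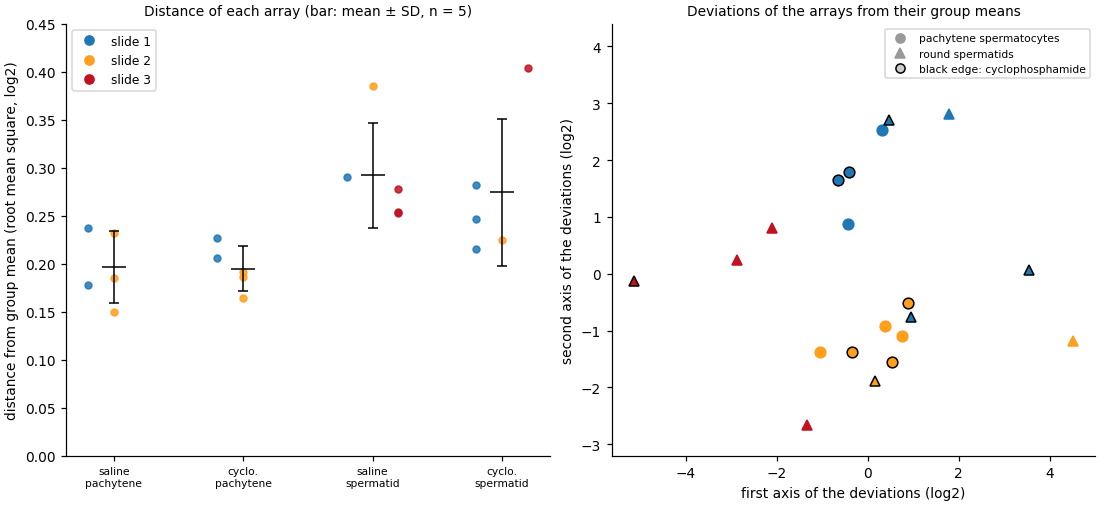
Left, distance of each array from its group mean (vertical axis, root mean square over 217 miRNAs, log2) by group, with bars for mean ± SD of 5 arrays; right, the same deviations on their first and second axes, with points coloured by slide (1 blue, 2 orange, 3 red). Spermatid arrays lie higher on the left, and on the right all 4 slide 3 arrays lie at the negative end of the first axis.

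Much of that spread ran along 1 axis. In a principal component analysis of the deviations from the group means, the first axis held 30.8% of the within-group variance and the second 18.8%. On the first axis the slide 3 spermatid arrays lay at -2.10, -1.33 and -2.87 with SAL rats 17, 25 and 28 and at -5.14 with CPA rat 26. The 6 spermatid arrays of slides 1 and 2 lay between 0.16 and 4.52, and all pachytene arrays between -1.04 and 0.89. On the second axis the pachytene arrays of slide 1 lay between 0.87 and 2.52 and those of slide 2 between -1.55 and -0.51. The signal of the hybridisation spike-in, added in equal amount to every array, was between 38315 and 43121 on the slide 3 arrays and between 7434 and 17552 on all others. Slide 3 holds no pachytene array, so for these cells the slide could not be compared.

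Among round spermatids, with treatment in the model, limma called 20 of 217 miRNAs between slide 3 and the other slides, 15 lower and 5 higher on slide 3. This comparison was added after the values were seen. The lower ones included miR-487b-3p at -1.35 ± 0.10 (SE, n = 4 against 6), miR-212-3p at -1.12 ± 0.07, miR-466b-5p at -1.39 ± 0.17 and miR-1249 at -1.04 ± 0.18. The higher ones included miR-409a-3p at 1.08 ± 0.20 and miR-2985 at 1.05 ± 0.20. miR-211-3p and miR-3541, whose sequences above are rich in G and C, had the widest spread of all. miR-211-3p read 6.78, 6.46, 6.38, 4.85 and 4.71 in SAL and 6.68, 6.94, 6.58, 5.55 and 5.03 in CPA round spermatids, against 5.38 to 6.31 on the pachytene arrays. miR-3541 was at the floor on all slide 3 arrays and between 4.22 and 5.48 on the other spermatid arrays. Over the tested miRNAs with a RefSeq sequence, the slide 3 difference had a median of 0.11 in 39 with a GC content up to 40% and of -0.29 in 34 with a GC content over 60%. The median difference of the drug effects in the same bins was 0.01 and 0.01, or 0.06 and -0.15 with slide as a block.

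With slide as a block limma again called 0 of 217 miRNAs, with 2 at an unadjusted p under 0.05. The block changed the sign of the difference for 62 miRNAs and moved it by more than 1 standard error for 16. Over the 217 miRNAs the blocked difference followed the slide 3 difference described above (Pearson's r = 0.67, Spearman's rho = 0.71), and the unblocked one did not rise with it (r = -0.17, rho = -0.05). These values share the spermatid arrays they were computed from. miR-211-3p went from -0.04 to -0.62 and miR-466b-5p from 0.11 to -0.42. Other values hardly moved, among them miR-7a-5p from 0.44 to 0.45, miR-34b-5p from 0.23 to 0.24 and miR-351-3p from -0.32 to -0.32.

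Whole-array measures gave no difference of the drug effects past the threshold either. The number of detected miRNAs was 235.2 ± 29.6 (SD, n = 5) in SAL and 232.8 ± 13.8 in CPA pachytene, and 216.6 ± 21.4 in SAL and 213.6 ± 22.6 in CPA spermatid arrays. The effects differed by -0.6 miRNAs, with an exact two-sided permutation p = 0.98. The share of miRNA spots with signal clear of background lay between 18.9% and 31.4% over the arrays. The effects on it differed by -0.77 percentage points (exact permutation p = 0.76). The log2 75th percentile before scaling differed by 0.07 (exact permutation p = 0.85). The log2 signal of the labelling spike-in differed by -0.44 (exact permutation p = 0.11), which scaling to it carries into every miRNA. Without slide 3 this difference was -0.09, and that of the 75th percentile was 0.41. Adjusted over the 4 measures the smallest p was 0.44.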

How the data were processed

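RNA from 20 cell preparations was hybridised to 1-colour Agilent miRNA arrays. The authors deposited scanner intensity values (processed signals, background-subtracted) read by the scanner software. The submitters' processing notes name that software as Agilent Feature Extraction, version 11.5.1.1. The authors also deposited a table of log2 values whose rows all have a median of 0, as the values show. Differences between arrays in it followed those of the scanner signals (median r of 0.901 over 49 matched miRNAs), and its scaling between arrays is unknown. Its columns had medians from -0.12 to 0.40, and it was used only as an alternative. Control spots and outlier spots were left out. Each array was divided by its 75th percentile over the 2176 spots well above background on all arrays and set back to a common scale, a floor of 12.2 was set, and log2 was taken. Where a miRNA had several probes, the brightest was used. A model of 4 group means was fitted with limma 3.58.1 (R 4.3.3) over all 217 miRNAs, with Benjamini-Hochberg adjustment. Figures were drawn with Python 3.11.15. The procedure was tested on simulated data. Exact permutation tests were two-sided. Array number limits the precision.

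Named miRNAs are the 10 with the smallest p, the 10 with the largest difference, the 6 with the largest pooled SD, the 5 brightest, and in each list of at least 3 tested members the one with the smallest p, 32 in all. Other miRNAs named were chosen after their values were seen. The miRNAs and lists were chosen with earlier results of these data known. Scaling, background correction, probe summary, filter, floor, slide, scan day, weights, moderation, rat number and left-out arrays were varied. Replicate arrays correlated at 0.957 to 0.996 over 40 pairs, and no arrays were identical. In 1 file (CPA spermatid rat 14) the processed signals are rounded to 3 digits.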

Additional observations from a re-analysis of the deposited data

Results flagged for a closer look

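In 138 groups of 5 arrays, 11 held an array whose gap to the others was large for the range of its group (Dixon's test), 7.97% where chance gives about 5%. In 2 of the 11, those of miR-126a-5p and miR-125b-2-3p below, the other 4 arrays were all at the floor, so that any value above it stands apart. Without such groups there were 9 of 136 (6.62%). In CPA pachytene spermatocytes miR-7a-5p read 5.15 in the earlier rat 16, against 4.75 to 4.82 in the others, and miR-126a-5p read 3.98 in rat 15 with the others at the floor of 3.61. miR-3541 read 4.46 in SAL pachytene rat 25, against 3.61 to 3.70. In round spermatids CPA rat 26, on slide 3, read 7.87 for miR-212-3p (others 8.71 to 9.04), 5.10 for miR-466b-5p (others 6.46 to 6.91) and 4.35 for miR-322-5p (others 4.72 to 4.80). miR-150-5p read 4.29 in CPA spermatid rat 16 (others 3.61 to 3.78). In SAL round spermatids miR-322-5p read 5.59 in rat 25 (others 4.71 to 4.86) and miR-125b-2-3p 3.63 in rat 15 (others 3.61). The log2 labelling spike-in signal was 9.54 in CPA pachytene rat 29 (others 9.99 to 10.12). The distance from the group mean was 0.385 in SAL spermatid rat 16 (others 0.253 to 0.290).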

How the results depend on the processing

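The count of 0 called miRNAs by limma (1 at an unadjusted p under 0.05) held in every setting run except within slide 2, with 1 spermatid array per treatment, where 26 were called, 13 in each direction, and 71 had an unadjusted p under 0.05. Of 1306 values of the 32 named miRNAs under alternatives, 1216 kept direction and side of the threshold, 86 changed sign and 4 passed the threshold (within slide 2). The cause of the sign changes was not tested. Scaling to the labelling spike-ins moved the median of all differences to 0.47, so its values are read against that shift. Without scaling the sign turned, to 0.033 for miR-211-3p and 0.16 for miR-150-5p. With scaling to the labelling spike-ins the sign turned, to 0.021 for miR-351-3p, 0.18 for miR-32-3p, 0.47 for miR-211-3p, 0.41 for miR-150-5p, 0.40 for miR-145-5p, 0.29 for miR-98-5p, 0.28 for miR-322-5p, 0.35 for miR-10a-5p, 0.31 for miR-223-3p, and miR-466b-2-3p had 0.26. With normexp on the median signals the sign turned, to 0.0043 for miR-211-3p and 0.053 for miR-150-5p. With the mean over all probes the sign turned, to -0.013 for miR-466b-5p. With the total gene signal the sign turned, to 0.093 for miR-146a-5p, -0.99 for miR-126a-5p and 0.034 for miR-211-3p. With a lower floor the sign turned, to 0.0017 for miR-351-3p and -0.21 for miR-126a-5p. With slide as a block the sign turned, to -0.037 for miR-212-3p, -0.070 for miR-1249, -0.31 for miR-3541 and -0.42 for miR-466b-5p. Within slide 1 the sign turned, to -0.016 for miR-30e-5p, -0.089 for miR-872-5p, -0.016 for miR-212-3p, -0.0013 for miR-1249, -0.18 for miR-126a-5p, 0.14 for miR-145-5p, -0.0083 for miR-34b-5p, -0.049 for miR-34c-5p, -0.14 for miR-449a-5p, -0.15 for miR-16-5p, -0.13 for miR-19b-3p, -0.020 for miR-25-3p, 0.0036 for miR-322-5p and -0.078 for miR-29b-3p. Within slide 2 the sign turned, to -0.26 for miR-34c-3p, -0.084 for miR-212-3p, -0.49 for miR-1249, -1.47 for miR-3541, 0.11 for miR-150-5p, -1.06 for miR-466b-5p, 0.14 for miR-145-5p, 0.24 for miR-98-5p and 0.023 for miR-322-5p. Without slide 3 the sign turned, to -0.12 for miR-212-3p, -0.13 for miR-1249, -0.48 for miR-3541, -0.34 for miR-466b-5p and 0.075 for miR-145-5p. With scan day as a block the sign turned, to -0.062 for miR-212-3p, -0.045 for miR-1249, -0.35 for miR-3541 and -0.45 for miR-466b-5p. With array weights the sign turned, to 0.41 for miR-211-3p, 0.27 for miR-150-5p, 0.30 for miR-145-5p and -0.018 for miR-19b-3p. With the random replicate block the sign turned, to 0.0036 for miR-211-3p. With the fixed replicate block the sign turned, to 0.22 for miR-32-3p, -0.24 for miR-34c-3p and 1.60 for miR-211-3p. Leaving out 1 array at a time, the values that changed sign ran from -0.32 to 0.25 for miR-211-3p, -0.10 to 0.49 for miR-3541, -0.44 to 0.068 for miR-150-5p, -0.087 to 0.42 for miR-466b-5p, -0.34 to 0.094 for miR-145-5p, -0.0029 to 0.17 for miR-19b-3p. The same omissions gave a CPA minus SAL distance from -0.033 to 0.0085, 0 to 7 miRNAs called for spread, and whole-array differences from -12.1 to 7.75 detected miRNAs, from -2.18 to 0.326 percentage points of spots and from -0.126 to 0.18 in the log2 75th percentile.

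The larger distance in round spermatids was 0.0715 without scaling and 0.0624 with spike-in scaling, neither past the threshold. The count of miRNAs with different spread was 1 under quantile normalization, 1 with spike-in scaling, 28 without slide 3 and 65 with deviations from the group mean. Without slide 3 the differences in detected miRNAs and spots were 12.4 and 1.01. Deviations from the mean, normexp on median signals and the unrounded signal column were chosen after seeing the data. Normexp on mean signals was not run.

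The deviations of arrays with equal rat numbers correlated at 0.12, 0.065, 0.17 and -0.29 for CPA rat 15 and SAL rats 16, 25 and 28. Only the CPA rat 15 pair shared a slide, and no unpaired arrays are set beside these pairs. The correlations therefore cannot tell whether the animals were the same. With rat number as a random replicate block 0 miRNAs were called, with a consensus correlation of 0.064, and with a fixed block 0 were called and 8 had an unadjusted p under 0.05. In the authors' values 45 of 49 matched miRNAs could be used, and 0 were called. With 5 arrays per group the median interval allowed differences of 0.42 on the log2 scale in either direction, and 72 miRNAs were at the floor on at least 1 array.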
